A study of Homo sapiens with 9 samples.

Results

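Midbrain floor plate differentiation of a human embryonic stem cell (hESC) line was followed here by setting untreated neural progenitor cells (NPC) at day 11 against the undifferentiated cells they came from, across all genes. The comparison uses 6 of the 9 messenger RNA sequencing libraries of a study of autophagy in neuronal differentiation, chosen by their column names, 3 labelled as control NPC and 3 as hESC. Both groups are of H9, an established hESC line, and neither was exposed to bafilomycin A1 (BafA1). The remaining 3 libraries, of day 11 NPC given BafA1 at 10 nM, were not compared here. They entered the filter on low counts, the scaling and the shared estimate of the spread between replicates. The hESC had not been differentiated. The control NPC had been grown from hESC plated as single cells on Matrigel, first in KSR medium, into which N2 medium was mixed from day 5, with LDN193189 at 200 nM and SB431542 at 10 µM, inhibitors of the BMP and of the activin and TGF-beta receptors. They had also received purmorphamine at 2 µM, an agonist of the Hedgehog transducer Smoothened, and CHIR99021 at 3 µM, a GSK3 inhibitor that raises beta-catenin, in windows of days that the labels do not give. All libraries are of 1 line, and the labels call those of a group biological replicates without saying whether they were separate differentiations, so that p-values measure only the spread between these samples.

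Pluripotent cells are held in an epithelial, self-renewing state by a small circuit of transcription factors around POU5F1 (OCT4), SOX2 and NANOG, fed by FGF and by NODAL or activin signals. When BMP and activin signalling are blocked together, they turn into neuroepithelium. Sonic hedgehog and WNT activity then set the position of that tissue: high Hedgehog gives the floor plate, the ventral midline of the neural tube, and a graded WNT signal sets forebrain against midbrain and hindbrain. The midbrain floor plate, which expresses LMX1A, FOXA2 and OTX2, is the source of midbrain dopaminergic neurons.

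The 6 libraries held 49479733 to 66544642 counts. Values of genes are counts scaled by TMM and by library size (CPM), as means ± SD of n = 3 libraries, and changes are log2 fold changes of control NPC against hESC from edgeR ± SE. The hESC libraries 1 and 3 were closest to each other, with a chi-square of 11.2 per degree of freedom over genes, and library 2 stood apart from them (74.5 and 60.6). The control NPC libraries were 20.1 to 54.9 apart. Without hESC library 2, 6248 genes were called higher and 6014 lower. Marker lists were set beside the labels. All 7 pluripotency markers fell, from a summed 4743 to 5031 CPM in hESC libraries to 579.6 to 638.6 in control NPC, of which LIN28A made up most. All 10 midbrain floor plate markers rose (122.6 to 142.7 against 564.9 to 966.4 CPM). FOXA2 (mean 62.3 CPM) and OTX2 gave most of the hESC sum, and SHH gave the largest part in control NPC (mean 215 CPM). The 7 mesenchyme markers rose too (69.75 to 74.38 against 1104 to 1844 CPM), and COL1A1 gave most of that sum. Blood markers had no count in hESC and 1.097 to 1.654 CPM in control NPC, while markers of neural crest (36.72 to 47.09 against 0.2816 to 0.6421 CPM, with SOX10 and FOXD3 at 0), of endothelium (33.3 to 38.23 against 4.541 to 9.415 CPM) and of endoderm (1.603 to 2.013 against 0.7265 to 1.405 CPM, with SOX17 at 0) were low. FOXD3, also counted below as a pluripotency factor, gave most of the neural crest sum in hESC (mean 40.7 CPM). Of the 3 neural crest markers tested, 1 rose and 2 fell. KDR gave most of the endothelial sum in hESC (mean 32.85 CPM). In such bulk libraries fewer cells of a type and less RNA per cell cannot be told apart.

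Differentiation changed most of the genes tested. Of 20685 genes, 6816 were called higher in control NPC (33%) and 6529 were called lower (31.6%), 64.5% in all, where a call is an adjusted p below 0.05 in edgeR. The median log2 change over all genes tested was 0.03, and 63.6% of genes were called with groups that did not overlap. At least 2-fold in the estimate were 3578 genes higher (17.3%) and 3463 lower (16.7%), and 524 rose and 648 fell by at least 5 on the log2 scale. There were 316 genes without a hESC count among those called higher and 361 without a control NPC count among those called lower. For such genes the estimate of edgeR exceeds the size that the counts bound. POU5F1 was at -19.97 in edgeR and at -15.38 at its bound of 3 counts per library. The numbers of genes by size use the estimates, so some changes in them may be smaller. Direction in the deposited FPKM was the same for 13337 of the 13345 called genes. Scaling by library size alone moved the median log2 change of all genes from 0.03 to 0.14.

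**Figure D1:**
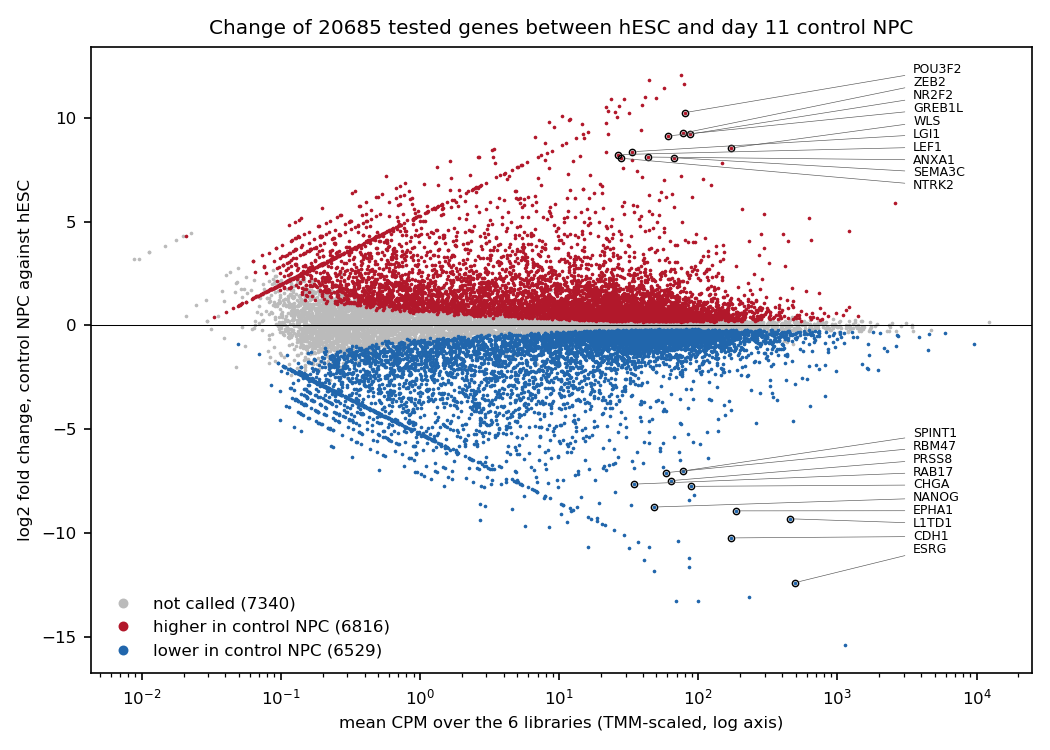
Log2 fold change of control NPC against hESC (y axis) by mean CPM of the 6 libraries (log x axis) for the 20685 genes tested. Red points are the 6816 genes called higher, blue points the 6529 called lower and grey points the 7340 not called, genes without a count in 1 group are drawn at their bound of 3 counts per library, and open circles mark the 20 genes with large changes chosen by the naming rule, which leaves out some kinds of symbol.

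The genes named first were chosen by a rule that leaves out symbols starting with LOC, LINC or MIR, those of antisense and divergent transcripts, and those ending in P and a number. Among the remaining genes with at least 3 counts in each library of the lower group, and 50 CPM or more in the higher one, the largest rise was in POU3F2 (BRN2), a POU factor of neural progenitors (chromosome 6, 98834574 to 98839458, GRCh38). It stood at 0.123, 0.184 and 0.0853 CPM in the hESC libraries and 182, 176 and 120.5 CPM in the control NPC libraries. The 3 control NPC libraries all lay far above the 3 hESC libraries, with a log2 change of 10.24 ± 0.25 (adjusted p = 3.34e-11). It was followed by ZEB2, a zinc finger repressor of E-cadherin (9.25 ± 0.19), the nuclear receptor NR2F2 (9.21 ± 0.17), GREB1L (9.12 ± 0.23) and WLS, the carrier that takes WNT proteins to the cell surface (8.54 ± 0.15). The secreted neuronal protein LGI1 (8.36 ± 0.21), the WNT effector LEF1 (8.22 ± 0.25), the phospholipid-binding protein ANXA1 (8.10 ± 0.24), the guidance cue SEMA3C (8.07 ± 0.24) and NTRK2, the receptor of the neurotrophin BDNF (8.04 ± 0.42), completed the 10 largest rises under the rule.

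The largest fall by the same rule was in ESRG, a long noncoding RNA of pluripotent cells (chromosome 3, 54632124 to 54639857). ESRG stood at 1019, 969 and 999 CPM in the hESC libraries and 0.173, 0.220 and 0.158 CPM in the control NPC libraries, without overlap and with a log2 change of -12.38 ± 0.17 (adjusted p = 1.38e-12). Next came E-cadherin, CDH1 (-10.23 ± 0.20), the RNA-binding protein gene L1TD1 (-9.31 ± 0.18), the ephrin receptor EPHA1 (-8.93 ± 0.21) and NANOG (-8.74 ± 0.34). The last 5 of the 10 were chromogranin A, CHGA (-7.75 ± 0.23), and 4 genes of epithelial cells: the small GTPase RAB17 (-7.64 ± 0.17), the membrane protease PRSS8, prostasin (-7.47 ± 0.23), the splicing regulator RBM47 (-7.09 ± 0.22) and the protease inhibitor SPINT1 (-7.01 ± 0.19). The exceptions for symbols took 3 genes with larger falls than CHGA out of this list: the microRNA host MIR302CHG (-8.42 ± 0.19), the zinc finger gene ZFP42 (REX1) of pluripotent cells (-8.18 ± 0.21) and the splicing regulator ESRP2 (-8.02 ± 0.21).

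Of 20 pluripotency factors, 17 fell and 3 rose (median log2 change -3.62), where 31.6% of all genes fell. POU5F1, PRDM14, FOXD3 and UTF1 had no count left in control NPC. NANOG stood at 96.1, 95.7 and 95.7 CPM in the hESC libraries and 0.462, 0.101 and 0.123 CPM in the control NPC libraries. The groups did not overlap, and 1 control NPC library held most of what was left. The factors SALL4 (from 158 to 68.5 CPM) and NR6A1 (from 299.6 to 98.8 CPM) fell by much less, and DPPA4, a chromatin-associated factor of pluripotent and germ cells, kept 66.4, 66.7 and 58.6 CPM in the control NPC libraries against 592, 646 and 615 CPM in hESC. Of the members that rose, OTX2 (from 68.5 to 122 CPM) and SOX2 (from 216 to 272 CPM) are known to act in early neural tissue as well. POU5F1 has processed copies of near-identical sequence, and NANOG has NANOGP8, which fell too (from 38.4 to 0.0993 CPM), so that the counts of both genes are uncertain where reads could be split between copies.

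The promoter of NANOG is shown because the composite site that it holds is bound by POU5F1 together with SOX2, of which the first was lost and the second was not. The 250 bases before its start (RefSeq, GRCh38.p14, chromosome 12, 7789152 to 7789401, plus strand) are printed 5′ to 3′ with the match in capitals:
NANOG: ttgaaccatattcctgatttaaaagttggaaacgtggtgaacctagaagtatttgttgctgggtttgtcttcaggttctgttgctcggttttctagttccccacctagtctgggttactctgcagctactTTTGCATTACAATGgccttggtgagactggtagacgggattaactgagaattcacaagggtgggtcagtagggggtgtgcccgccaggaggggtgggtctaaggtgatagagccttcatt
The motif searched was the OCT4-SOX2 composite, on both strands, and the match starts 120 bases before the start, on the minus strand. Windows of this length were at hand for 27305 genes, and 2 of them held the motif (0.00732%), those of NANOG and of NRARP, a regulator of Notch and WNT signalling. NRARP also fell, from 41.1 ± 2.90 to 9.36 ± 1.26 CPM (-2.13 ± 0.12). A match is a description of these letters and no evidence of binding.

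Other classes of pluripotent-state genes went down with the circuit. Of 15 surface markers, 13 fell and 2 rose (median -2.22), where 31.6% of all genes fell and 33% rose. The tetraspanin CD9 fell from 203 ± 21.4 to 3.92 ± 0.879 CPM, EPCAM, an epithelial adhesion molecule, from 266 ± 6.62 to 11.8 ± 2.09 CPM, and PODXL, which carries the TRA-1 epitopes, from 870.1 ± 34.4 to 122 ± 23.2 CPM. CD24 (from 1599 to 355 CPM) and the glucose transporter SLC2A3 (from 1291 to 625 CPM), also members, remained among the abundant transcripts. Of 11 long noncoding RNAs of pluripotent cells, 10 fell (median -9.05, or -6.60 with genes at their bound), among them LNCPRESS1 (at least 396-fold) and LINC00678 (from 138 to 0.0117 CPM), and SOX2-OT rose (1.71 ± 0.18). Of 11 genes of the naive, earlier pluripotent state, which hESC express at low levels, 7 fell and 2 rose: ESRRB fell from 7.48 ± 0.833 to 0.508 ± 0.0910 CPM, TFCP2L1 from 7.58 to 0.0385 CPM, and IL6ST, the shared receptor of IL6-type cytokines, rose from 10.7 ± 0.387 to 94 ± 10.7 CPM.

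Of 10 RNA-binding and chromatin genes shared by embryonic cells of many kinds, 6 fell, 2 rose and 2 were not called (median -0.46). LIN28A, which blocks let-7 processing, stood at 1230, 1154 and 1144 CPM in the hESC libraries and 518, 513 and 579.9 CPM in the control NPC libraries. The groups did not overlap, and the fall was small beside that of NANOG (-1.13 ± 0.09, adjusted p = 5.19e-07). Its paralog LIN28B stood at 146 ± 7.84 CPM in hESC and 138 ± 6.93 CPM in control NPC (adjusted p = 0.476), and the chromatin protein HMGA2 rose from 273 ± 17.4 to 381 ± 32.5 CPM while HMGA1 fell from 2458 ± 71.4 to 915 ± 29.3 CPM.

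The microRNA genes of this transition were seen through their host transcripts, since mature microRNAs were not measured. Of 25 tested host genes, 16 rose and 3 fell (median 1.07), and 5 fell without a filter on low counts. Among all genes 33% rose and 31.6% fell. The 3 that fell with the filter were MIR302CHG, MIR17HG and MIR205HG. MIR302CHG, the host of the miR-302 and miR-367 cluster of pluripotent cells (chromosome 4, 112646720 to 112650051), stood at 161, 187 and 168 CPM in the hESC libraries and 0.539, 0.558 and 0.405 CPM in the control NPC libraries (-8.42 ± 0.19, adjusted p = 2.45e-11). MIR17HG, the host of the growth-promoting miR-17-92 cluster (chromosome 13, 91347687 to 91354577), stood at 44.1, 55 and 48.1 CPM in the hESC libraries and 12.8, 12.6 and 9.59 CPM in the control NPC libraries (-2.07 ± 0.14), and MIR205HG, host of an epithelial microRNA, fell from 8.44 ± 0.386 to 0.149 ± 0.0396 CPM (-5.80 ± 0.24). For none of the 3 did the groups overlap. In the other direction, MIR99AHG (chromosome 21, 16070488 to 16631727) stood at 0, 0.0552 and 0.0341 CPM in the hESC libraries and 4.79, 5.86 and 9.96 CPM in the control NPC libraries (7.82 ± 0.48) and MIR100HG (chromosome 11, 122028329 to 122422871) rose from 0.769 ± 0.210 to 8.16 ± 1.05 CPM (3.40 ± 0.19). Both carry a let-7 gene, a family known for restraining embryonic programmes and held back by LIN28.

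Hairpins lay inside 22 of the 25 host genes by their coordinates (RefSeq, GRCh38.p14), with 72 mature microRNAs. Some mature sequences of falling and rising hosts are given because several share a seed, the bases 2 to 8 that pair with targets, which are in capitals:
hsa-miR-302a-3p: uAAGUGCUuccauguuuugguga
hsa-miR-302b-3p: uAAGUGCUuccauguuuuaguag
hsa-miR-302c-3p: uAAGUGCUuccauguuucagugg
hsa-miR-302d-3p: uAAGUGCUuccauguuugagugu
hsa-miR-17-5p: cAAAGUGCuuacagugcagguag
hsa-miR-20a-5p: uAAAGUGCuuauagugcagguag
hsa-miR-367-3p: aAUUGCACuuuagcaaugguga
hsa-miR-92a-3p: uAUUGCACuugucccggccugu
hsa-miR-99a-5p: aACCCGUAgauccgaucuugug
hsa-miR-100-5p: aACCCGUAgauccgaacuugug
hsa-let-7c-5p: uGAGGUAGuagguuguaugguu
hsa-let-7a-5p: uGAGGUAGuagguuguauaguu
hsa-miR-125b-5p: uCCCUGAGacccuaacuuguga
The 4 miR-302 sequences share the seed AAGUGCU, and miR-17-5p and miR-20a-5p of MIR17HG carry AAAGUGC, in which the same run of letters is shifted by 1 base. The falling hosts MIR302CHG and MIR17HG also share AUUGCAC between miR-367-3p and miR-92a-3p. The rising hosts MIR99AHG and MIR100HG share ACCCGUA between miR-99a-5p and miR-100-5p, and GAGGUAG between the let-7 members, and MIR100HG also holds miR-125b-5p. No seed was shared between a host that fell and 1 that rose.

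Some chromatin regulators that mark the pluripotent state fell, in families that moved in both directions as all genes did (33% rose and 31.6% fell). Among 15 genes of DNA methylation, 6 rose and 5 fell, the falls near the share of all genes. DNMT3B, the de novo methyltransferase of the early embryo, stood at 971, 930.0 and 844 CPM in the hESC libraries and 41.7, 38.3 and 32.1 CPM in the control NPC libraries (-4.61 ± 0.15, adjusted p = 2.38e-10), a 24.5-fold fall without overlap, against -1.04 ± 0.08 for its paralog DNMT3A and -0.90 ± 0.18 for the demethylase TET1. TET2 rose (2.23 ± 0.16). Among 29 Polycomb genes, 15 rose and 9 fell, the falls again near the share of all genes, and some paralogs moved in opposite directions. PHC1, a PRC1 subunit, fell from 1184 ± 20.9 to 81.6 ± 3.32 CPM while its paralog PHC2 rose from 33 ± 1.21 to 188 ± 26.7 CPM. BMI1 (from 3.13 to 37.8 CPM) and CBX8 (from 1.27 to 11.5 CPM) rose, and JARID2, a PRC2 cofactor, fell (from 379 to 73.6 CPM). Of 14 telomere genes 7 fell and 3 rose, among the falls TERT, the catalytic subunit of telomerase (from 21.2 ± 1.08 to 1.60 ± 0.443 CPM), and the telomere-binding protein TERF1 (from 504 ± 29.7 to 53.4 ± 1.92 CPM).

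Among 30 genes of NODAL, activin and TGF-beta signalling, 14 rose and 13 fell (median 0.11), where 33% of all genes rose and 31.6% fell. The ligand NODAL (-7.31 ± 0.61), its feedback inhibitors LEFTY1 (from 143 to 0.108 CPM) and LEFTY2 (from 41 to 0.359 CPM), its co-receptor TDGF1 (no count in control NPC) and its nuclear partner FOXH1 (from 63 to 0.0357 CPM) fell. The ligand TGFB2 stood at 0.753, 1.03 and 1.01 CPM in the hESC libraries and 66.1, 58.7 and 46.5 CPM in the control NPC libraries (5.95 ± 0.17). The effector SMAD3 (from 26.2 to 169 CPM) and the activin-binding inhibitor follistatin, FST (from 3.50 to 90.3 CPM), rose too. Of 36 FGF genes and genes induced by ERK, 20 fell and 9 rose (median -0.89). Among the genes induced by ERK, SPRY4 fell from 285 to 20.3 CPM, DUSP6 from 394 to 120.0 CPM and ETV4 from 159.6 to 10.2 CPM, and DUSP4 and SPRED2 rose (1.31 ± 0.13 and 0.53 ± 0.11). The receptors FGFR1 (from 720.0 to 219 CPM) and FGFR4 (from 79.7 to 1.62 CPM) fell, and FGFR3 rose (0.94 ± 0.24). Among the ligands FGF2 fell (from 75.1 to 23 CPM) and FGF10 rose (from 0.145 to 10.3 CPM).

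Of 29 BMP genes 19 rose and 3 fell (median 0.76), where 33% of all genes rose and 31.6% fell, and 6 fell after removal of trends on GC content and length. The ligand BMP7 stood at 11.7, 10.1 and 10.7 CPM in the hESC libraries and 169, 154 and 210.2 CPM in the control NPC libraries (4.04 ± 0.14, adjusted p = 4.97e-10), well apart. BMP4 rose from 1.98 ± 0.301 to 75.5 ± 16.7 CPM, BMP5 rose to 12, 10.1 and 10.1 CPM from hESC libraries without a count (at least 211-fold). The extracellular antagonist GREM1 rose from 0.353 ± 0.0949 to 39.1 ± 9.91 CPM. Among the ID genes, direct targets of BMP signalling, ID3 and ID4 rose (0.61 ± 0.12 and 1.71 ± 0.19), ID2 rose (0.38 ± 0.12), and ID1 stood at 14.6 ± 1.82 CPM in hESC and 11.9 ± 2.00 CPM in control NPC (adjusted p = 0.0947). In the retinoic acid pathway 10 of 20 genes rose and 4 fell. The receptor RARB, itself a target, rose from no count to 9.01, 9.07 and 12.2 CPM (at least 199-fold) while its relative RARG fell (from 43.1 to 5.15 CPM). The synthesising enzyme ALDH1A2 (from 0.178 to 4.03 CPM) and the degrading enzyme CYP26C1 (from 0.188 to 8.37 CPM) rose, and ALDH1A3 fell (from 5.89 to 0.210 CPM).

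**Figure D2:**
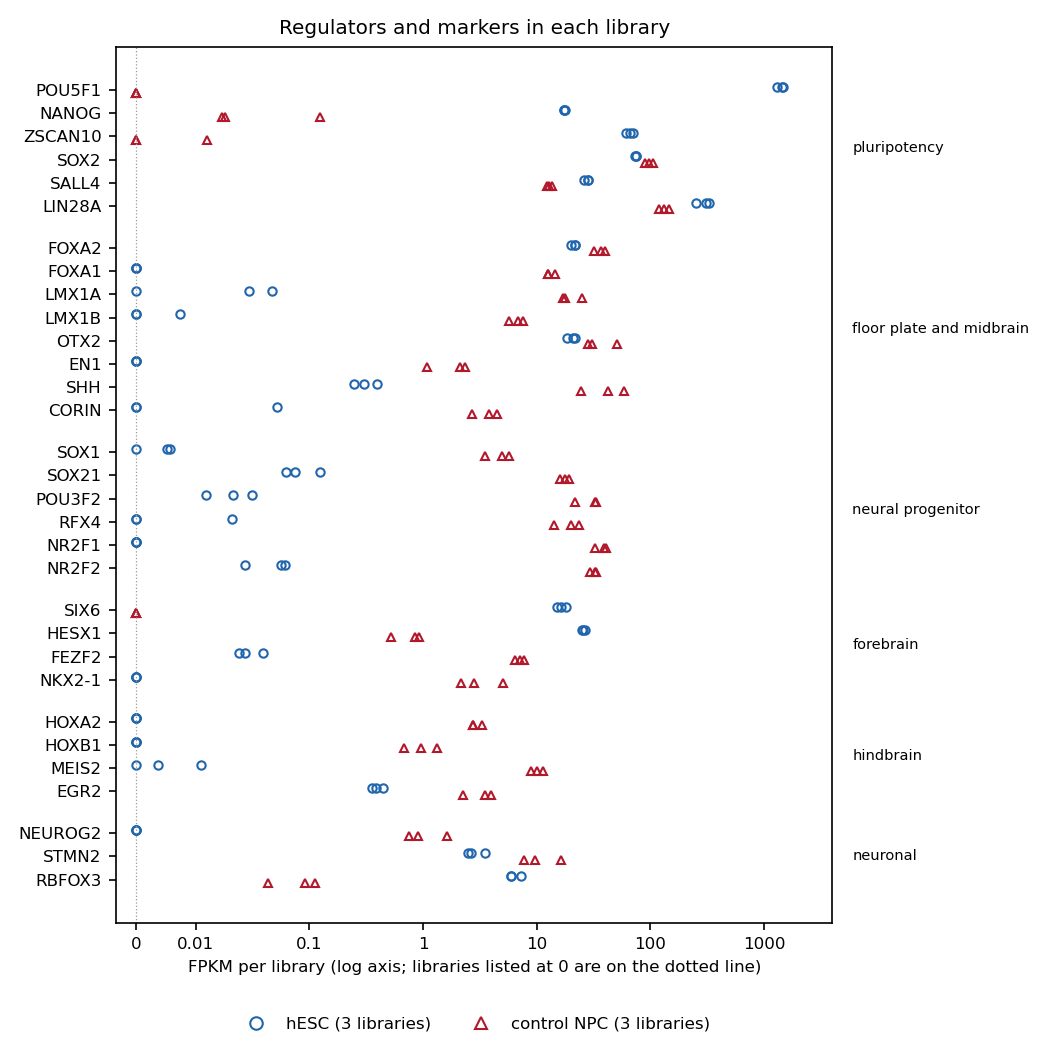
FPKM of 31 regulators and markers (log x axis) in each of the 3 hESC (blue circles) and 3 control NPC libraries (red triangles), with libraries listed at 0 on the dotted line. POU5F1 and SIX6 are at 0 in the 3 control NPC libraries, FOXA1, EN1, NR2F1, NKX2-1, HOXA2, HOXB1 and NEUROG2 are at 0 in the 3 hESC libraries, and SOX2, FOXA2 and OTX2 are well above 0 in both groups.

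Of 29 midbrain genes, of the floor plate or of the dopaminergic lineage, 20 rose and 5 fell (median 4.24, or 3.54 at the bounds). Among all genes 33% rose and 31.6% fell. In the list of 32, 8 had no hESC count, and those of them that were tested could not fall. LMX1B, a LIM homeobox factor of the midbrain floor plate, stood at 0.0615, 0 and 0 CPM in the hESC libraries and 47.8, 39.4 and 54.1 CPM in the control NPC libraries (10.90 ± 0.58). The floor plate proteins CORIN (from 0.0512 to 17.8 CPM), SPON1 (from 1.33 to 71.2 CPM) and netrin 1, NTN1 (from 4.21 to 109 CPM), rose, as did the helix-loop-helix factor FERD3L (no count to 5.33, 10.8 and 13.9 CPM). SHH was uneven between the control NPC libraries, at 125, 215 and 306 CPM, against 1.27, 2.15 and 1.48 CPM in hESC. Among the members that fell were genes of maturing dopaminergic neurons: CALB1 (from 18.8 to 1.19 CPM), the vesicular monoamine transporter SLC18A2 (from 5.27 to 0.716 CPM), the dopamine transporter SLC6A3 (from 0.735 to 0.110 CPM) and NR4A2 (from 2.74 to 0.868 CPM). DDC, which makes dopamine and serotonin from their precursors, rose from 0.0355 ± 0.0308 to 29.3 ± 11.5 CPM.

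In the ventral neural tube list 14 of 19 genes rose and 4 fell (median 2.59), where 33% of all genes rose and 31.6% fell. NKX6-1 rose from 0.0227 ± 0.0394 to 18.5 ± 2.92 CPM, NKX2-2 from no count to 6.68, 7.55 and 8.46 CPM and DBX1, a factor of more dorsal interneuron progenitors, from 0.0307 ± 0.0532 to 53.6 ± 24.5 CPM. The oligodendrocyte and motor neuron progenitor factors OLIG2 (from 5.32 to 1.57 CPM) and OLIG1 (from 4.05 to 0.324 CPM) fell. Of the genes through which cells read Hedgehog, the inhibitor HHIP, a target, rose from 0.0205 ± 0.0355 to 13.3 ± 1.38 CPM, GLI1 from 8.75 ± 0.834 to 15.6 ± 0.843 CPM and GLI3 from 27.3 ± 1.58 to 87.1 ± 18.3 CPM. GLI2 fell from 37.5 ± 1.56 to 16.2 ± 3.38 CPM. The receptor gene PTCH1, a target that dampens the pathway, stood at 21.9, 24.5 and 22.7 CPM in the hESC libraries and 154, 158 and 188 CPM in the control NPC libraries, without overlap.

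The promoter window of PTCH1 is shown because PTCH1 is the classical readout of GLI activity. It is given 5′ to 3′ on the strand of the gene (RefSeq, GRCh38.p14, chromosome 9, 95509267 to 95509516, minus strand), with the GLI motif in capitals:
PTCH1: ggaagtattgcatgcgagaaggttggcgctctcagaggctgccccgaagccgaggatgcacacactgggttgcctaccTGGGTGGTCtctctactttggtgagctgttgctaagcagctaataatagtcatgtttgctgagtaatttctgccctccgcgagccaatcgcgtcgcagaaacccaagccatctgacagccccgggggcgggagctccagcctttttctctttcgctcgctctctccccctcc
The motif was TGGGTGGTC on both strands, and its match begins 172 bases before the start. It was found in 59 of 27305 windows (0.216%), in 7 of 5110 genes called higher (0.137%) and in 7 of 4760 called lower (0.147%). In the ventral neural tube list PTCH1 was the 1 match among 15 windows.

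Of 25 forebrain and diencephalon genes, 13 rose and 7 fell (median 1.83), where 33% of all genes rose and 31.6% fell. Among the falls were factors of the anterior neural plate and eye field that hESC already transcribed: SIX6 was lost, HESX1 stood at 31.6, 33.6 and 29.4 CPM in the hESC libraries and 1.23, 2.15 and 2.41 CPM in the control NPC libraries (-4.02 ± 0.21), EMX1 fell from 10.8, 9.78 and 9.45 CPM to no count and ZIC5 fell from 94.8 ± 3.46 to 12.6 ± 0.762 CPM. NKX2-1 rose from no count to 5.24, 6.79 and 12.4 CPM, and control NPC library 3 was the highest. FEZF2 rose from 0.0843 ± 0.0157 to 16.8 ± 1.30 CPM. SIX3, an anterior factor, stood at 1.53 ± 0.333 CPM in hESC and 2.30 ± 1.11 CPM in control NPC (adjusted p = 0.106).

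Of 19 hindbrain and isthmus genes, 17 rose and 1 fell (median 4.98, or 3.64 at the bounds), where 33% of all genes rose. In the list of 26, 11 had no hESC count, and those of them that were tested could not fall. MEIS1 rose from no count to 16.5, 23.4 and 27.2 CPM, EGR2 (KROX20), a factor of hindbrain segments, from 1.36 ± 0.120 to 10.4 ± 2.74 CPM, and IRX2 from 3.65 ± 0.879 to 24.7 ± 2.74 CPM. GBX2, which sets the front edge of the hindbrain against OTX2, stood at 0.590 ± 0.113 CPM in hESC and 0.607 ± 0.0234 CPM in control NPC (adjusted p = 0.925).

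HOX genes, which are switched on in order along their clusters and mark the hindbrain and spinal cord, were detected above the filter in 2 clusters. Of 39 HOX genes in the table, 37 had no count in hESC, 30 had no count in control NPC, and 4 passed the filter on low counts, all of which rose. HOXA2 stood at 5.16, 5.12 and 6.25 CPM in the control NPC libraries, at least 108-fold above hESC. HOXB1 stood at 1.54, 2.99 and 2.20 CPM and HOXB2 at 3.46, 2.72 and 2.48 CPM. The next genes along, HOXB3 (34 counts over the 3 control NPC libraries) and HOXA3 (14 counts), were near the floor, HOXB4 and HOXB5 had 4 counts each, and no gene of the paralog groups 6 to 12 had a count in either group. HOXD1, of group 1 in another cluster, had none either, which allows up to 3 counts per library, 0.0535 to 0.0606 CPM in control NPC. The 4 that passed the filter did so without a count in hESC and so could only differ in that direction.

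**Figure D3:**
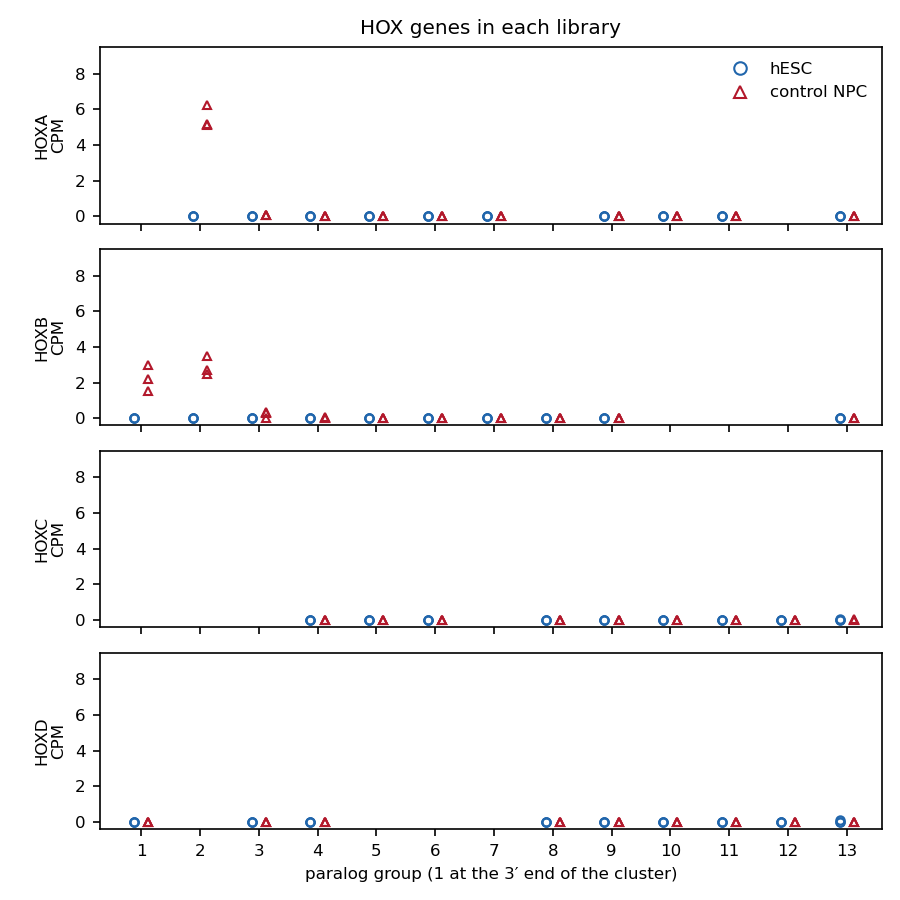
CPM (y axis) of 38 HOX genes in each hESC library (blue circles) and control NPC library (red triangles), by cluster (rows A to D) and paralog group (x axis). HOXA2, HOXB1 and HOXB2 stand above 1 CPM in the 3 control NPC libraries, and the other HOX genes plotted lie at or near 0 in all 6.

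Dorsal genes rose as well: 15 of 20 rose and 2 fell (median 3.52, or 2.60 at the bounds), where 33% of all genes rose. TTR, the thyroid hormone carrier made by the choroid plexus and the liver, rose from no count to 6.49, 10.7 and 18 CPM, PAX3 from no count to 4.37, 4.70 and 5.12 CPM and OLIG3 from 0.0236 ± 0.0205 to 6.71 ± 0.839 CPM. The ZIC factors split: ZIC1 and ZIC4 rose (7.04 ± 0.41 and 6.08 ± 0.50), and ZIC2 (-1.88 ± 0.17) and ZIC5 (-2.92 ± 0.09) fell. ALB, an endoderm gene beside which TTR is often read, had no hESC count and a mean of 0.319 CPM in control NPC, and the part of other cell types in the TTR level was not tested.

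Within transcription factor families genes moved in both directions, as all genes did (33% rose and 31.6% fell). Of 16 tested SOX genes 7 rose and 6 fell: SOX21 stood at 0.215, 0.442 and 0.256 CPM in the hESC libraries and 58.1, 61.6 and 53.4 CPM in the control NPC libraries (7.58 ± 0.17), SOX5 rose from 1.19 ± 0.153 to 37.2 ± 4.07 CPM, SOX6 from 0.0994 ± 0.0605 to 14 ± 1.19 CPM and SOX11 from 89.1 ± 4.35 to 160.5 ± 17.7 CPM. Among the falls, SOX4 went from 271 ± 15.9 to 152 ± 4.57 CPM, SOX13 from 91.7 ± 3.52 to 33.9 ± 5.69 CPM and SOX3 from 17 ± 1.60 to 7.45 ± 1.93 CPM. Of 12 POU genes 4 rose and 6 fell. POU5F1 held 1396 FPKM in hESC and POU3F2 rose from 0.0216 ± 0.00948 to 29.4 ± 6.56 FPKM, while POU3F4 rose and POU3F1 fell (1.59 ± 0.23 and -1.48 ± 0.12). Of 9 NKX genes 7 rose. In the NKX list of 14, 7 had no hESC count, and those of them that were tested could not fall. NKX1-2, of the late epiblast, fell from 16.8 ± 2.32 to 0.0169 ± 0.0293 CPM. Of 34 FOX genes 16 rose and 11 fell, with FOXP2 (from 0.793 to 35.2 CPM), FOXB1 (from 3.05 to 39.9 CPM) and FOXF2 (no count to 17.3, 15.4 and 11.7 CPM) among the rises. FOXO1 fell (from 74 to 11.1 CPM). Of 36 nuclear receptors 14 rose and 15 fell. Of 473 zinc finger genes named ZNF 198 rose and 105 fell, 64.1% called, against the 64.5% of all genes.

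Of 33 neural progenitor genes, 26 rose and 5 fell (median 3.29, or 2.90 at the bounds), where 33% of all genes rose. RFX4, a regulator of neural cilia and of ventral patterning, stood at 0.108, 0 and 0 CPM in the hESC libraries and 60.7, 85 and 104 CPM in the control NPC libraries (10.97 ± 0.40). The endocytic receptor LRP2 (megalin), which takes up SHH, rose from 1.32 ± 0.162 to 294 ± 72.2 CPM, the matrix glycoprotein TNC from 2.46 ± 0.438 to 179 ± 63.4 CPM, and ZBTB16 (PLZF) from 0.0461 ± 0.0798 to 63.2 ± 2.91 CPM. Nestin, NES, was already at 281, 236 and 261 CPM in the hESC libraries and rose to 626, 579 and 636. Members that fell were PTPRZ1 (from 573 to 77 CPM), HEY2 (from 9.05 to 0.879 CPM), SOX3, PROM1 and NOTCH1 (-0.70 ± 0.09), while NOTCH3 (0.63 ± 0.13) and the ligand DLL1 (3.29 ± 0.21) rose. HES5, a Notch target, had no count in hESC and 0.270, 0.186 and 0.686 CPM in the control NPC libraries, and its call was lost with limma on log2(FPKM + 1).

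Of 34 neurogenic and neuronal genes, 21 rose and 6 fell (median 1.32). The proneural factors NEUROG2 (no count to 1.91, 2.30 and 4.26 CPM) and NEUROG1 rose, as did GAD1, which makes GABA (from 0.259 to 5.12 CPM), and the growth cone protein GAP43 (from 4.96 to 33.6 CPM). RBFOX3 (NeuN), a marker of mature neurons, fell from 22.3 ± 2.75 to 0.327 ± 0.136 CPM, and the secretory granule gene SCG3 (from 85 to 5.55 CPM) fell, with synaptophysin, SYP (from 12.7 to 3.17 CPM). Of 65 neurotransmitter receptor subunits 36 fell and 19 rose (median -1.14). Of 77 potassium channels 38 fell and 20 rose (median -0.61). Of 36 sodium and calcium channels 14 fell and 12 rose. Of all genes 31.6% fell and 33% rose, to which the sodium and calcium channels were close. The AMPA receptor subunit GRIA1 stood at 0.599, 0.681 and 0.597 CPM in the hESC libraries and 24.1, 29.2 and 30.3 CPM in the control NPC libraries (5.48 ± 0.14), against the direction of most of its list and without overlap.

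Of 65 axon guidance genes 37 rose and 18 fell (median 1.04), where 33% of all genes rose and 31.6% fell. The secreted midline cues rose, SLIT1 from 1.02 ± 0.202 to 148 ± 19.9 CPM, SLIT2 from 29.7 ± 1.14 to 270.3 ± 48.6 CPM and SLIT3 from 2.34 to 23.8 CPM. Of their receptors ROBO2 (from 25.5 to 9.30 CPM) and ROBO3 (from 13 to 5.36 CPM) fell and ROBO1 stood at 72.1 ± 2.09 CPM in hESC and 78.8 ± 6.30 CPM in control NPC (adjusted p = 0.312). The semaphorin receptors NRP1 (from 0.482 to 40.2 CPM) and NRP2 (from 41.6 to 209 CPM) rose. Of the netrin receptors DCC and UNC5C rose (1.87 ± 0.34 and 4.56 ± 0.16) and UNC5A, UNC5B and UNC5D fell (-3.68 ± 0.25, -2.51 ± 0.19 and -3.70 ± 0.26). EPHA1, at 372, 375 and 369 CPM in hESC, had 0.789, 1.03 and 0.458 CPM in control NPC, whereas EPHA4, EPHA7 and EPHB2 rose (2.04 ± 0.11, 2.48 ± 0.21 and 2.28 ± 0.21). Of 38 neural adhesion molecules 24 rose and 10 fell (median 0.91), among the rises contactin 6, CNTN6 (from 0.0341 ± 0.0591 to 45.2 ± 17.3 CPM), CHL1 (from 0.789 ± 0.144 to 40.5 ± 6.31 CPM) and FLRT3 (from 2.17 ± 0.398 to 90.1 ± 30.9 CPM).

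Epithelial genes of hESC fell nearly throughout. Of 34 epithelial junction genes 30 fell and 2 rose (median -4.38), against 31.6% of all genes that fell. E-cadherin, CDH1 (chromosome 16, 68737292 to 68835537), stood at 358, 324 and 357 CPM in the hESC libraries and 0.270, 0.338 and 0.246 CPM in the control NPC libraries, a 1215-fold fall with no overlap. The splicing regulator ESRP1 fell from 169.9, 178 and 171 CPM to no count (at least 3216-fold), its paralog ESRP2 from 50.1 to 0.191 CPM, and the polarity gene CRB3 from 13.1, 11.8 and 13.2 CPM to no count. Tight junction claudins fell, CLDN6 from 502 ± 14.6 to 19.2 ± 6.45 CPM and CLDN7 from 80.8 to 0.0282 CPM, as did the transcription factors GRHL2 (from 30.1 to 0.624 CPM) and OVOL2 (no count in control NPC). The members that rose were the desmosomal genes DSP (0.52 ± 0.12) and PKP2 (0.45 ± 0.15), by little, and 1 member rose after removal of trends on GC content and length and without hESC library 2, hESC library 3 or control NPC library 3. The catenin gene CTNND1 stood at 309 ± 5.73 CPM in hESC and 303 ± 12.8 CPM in control NPC (adjusted p = 0.779).

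Among the classical cadherins 11 of 20 rose and 7 fell, where 33% of all genes rose and 31.6% fell. N-cadherin, CDH2, stood at 41.6, 42.2 and 43.1 CPM in the hESC libraries and 523, 515 and 624 CPM in the control NPC libraries (3.71 ± 0.12, adjusted p = 2.66e-10). On the per-length scale CDH1 went from 62.1 ± 4.02 to 0.0505 ± 0.00860 FPKM and CDH2 from 9.11 ± 0.262 to 124 ± 11.9 FPKM. CDH6 (from 1.57 ± 0.288 to 115 ± 13.3 CPM), CDH11 (from 8.90 ± 0.831 to 131 ± 13 CPM) and CDH10 (from 0.582 to 22 CPM) rose with CDH2, and P-cadherin, CDH3, fell from 180.3 ± 6.71 to 3.68 ± 0.616 CPM. Of 13 transcription factors of epithelial to mesenchymal transition 7 rose and 4 fell. ZEB2 stood at 0.338, 0.239 and 0.171 CPM in the hESC libraries and 130.0, 161 and 175 CPM in the control NPC libraries, ZEB1 rose from 1.41 ± 0.379 to 57.2 ± 3.43 CPM, TWIST1 from 0.0512 ± 0.0887 to 30.1 ± 6.70 CPM and PRRX1 from 0.0307 ± 0.0531 to 43.8 ± 9.09 CPM. SNAI1 fell (-1.40 ± 0.18). TWIST1 and PRRX1 are also markers of mesenchyme, whose list rose in 13 of 16 tested cases and fell in 2, and the part of such cells in these rises was not tested.

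The letters CACCTG, an E-box bound by ZEB and SNAI factors, were looked for on both strands of the 250 bases before each start. They were in 17.5% of all 27305 windows and in 16.4% of the 14659 windows of genes tested. Of windows of genes called lower 20% held them, and of those of genes called higher 14%. The windows were not matched for GC content. On chromosome 19 the median log2 change moved from -0.21 to 0.01 after removal of GC and length trends. The cause of the difference between 20% and 14% was not tested. Among 18 epithelial junction genes with a window, 6 held them: CRB3, DSG2, DSP, OCLN, RAB25 and TJP1. No window was at hand for CDH1, which was not searched. DSP is 1 of the genes of the list that rose.

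Vimentin, VIM (chromosome 10, 17228241 to 17237593), stood at 86.1, 71.8 and 97.8 CPM in the hESC libraries and 4927, 5635 and 4750 CPM in the control NPC libraries, and rose from 37.1 ± 8.57 to 2198 ± 221 FPKM. That was the largest rise in mean FPKM, with a log2 change of 5.90 ± 0.19 (adjusted p = 1.57e-10), and no hESC library came near a control NPC library. The second largest rise in mean FPKM was in CRABP1, a carrier of retinoic acid (from 249.5 to 899 FPKM), which the exceptions for symbols leave out of the rule. Of the genes that the rule admits, the next were the myosin light chain MYL6 (from 696 to 1289 FPKM), the actin-binding peptide TMSB10 (from 907 to 1373 FPKM), annexin A2, ANXA2 (from 27.1 to 474 FPKM), the tubulin TUBA1A (from 435 to 845 FPKM), NREP (from 156 to 480.3 FPKM) and the paired growth factors PTN (from 14.9 to 326 FPKM) and MDK (from 318 to 606 FPKM). Keratins KRT18 (from 461 to 157 CPM) and KRT19 (from 139.8 to 48.6 CPM) fell, and KRT8 stood at 492 ± 48.5 CPM in hESC and 422 ± 62.9 CPM in control NPC (adjusted p = 0.21).

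Of 48 matrix glycoproteins and proteoglycans 27 rose and 10 fell (median 0.86), where 33% of all genes rose and 31.6% fell. Fibronectin, FN1, stood at 94.5, 101 and 99.9 CPM in the hESC libraries and 2925, 2178 and 1831 CPM in the control NPC libraries (4.55 ± 0.20). VCAN (from 285 ± 24.4 to 907 ± 138 CPM), FBN2 (from 83.2 ± 0.966 to 300.1 ± 23 CPM) and BGN (from 22.1 ± 2.80 to 244 ± 60.9 CPM) rose, and GPC4, a cell-surface proteoglycan of pluripotent cells, fell from 543 ± 27.3 to 200.4 ± 19.2 CPM. Of 41 collagen genes 21 rose and 14 fell. COL1A1 stood at 70.5, 68.1 and 72.2 CPM in the hESC libraries and 1588, 1177 and 868 CPM in the control NPC libraries, COL2A1 rose from 8.33 ± 1.06 to 401 ± 33.3 CPM and COL11A1 from 48.5 ± 7.36 to 500.4 ± 38.2 CPM. COL9A3 fell from 36 ± 2.97 to 1.24 ± 0.297 CPM. Of 11 laminins 7 rose and 3 fell, LAMB1 from 98.2 ± 2.93 to 248 ± 19.9 CPM and LAMC3 from 38.5 ± 2.05 to 2.02 ± 0.564 CPM. Of 23 integrins 11 rose and 10 fell. Mesenchyme markers moved with these genes and 2 of them, COL1A1 and COL3A1, are collagens. PDGFRA (38.6, 37.2 and 33 CPM in control NPC), TWIST1 (37.6, 27.9 and 24.7 CPM) and LUM (33.7, 30.02 and 33.2 CPM) were all present, and the part of mesenchymal cells in the matrix result was not tested.

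**Figure D4:**
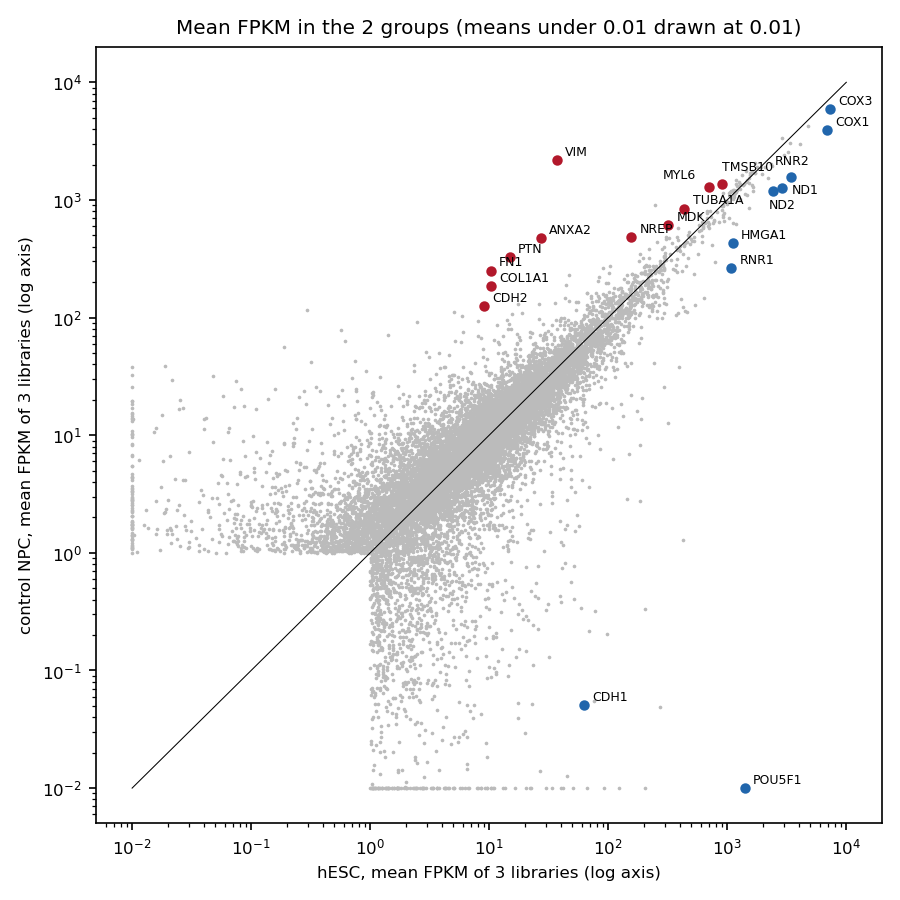
Mean FPKM of control NPC (y axis) against hESC (x axis), both on log axes, for genes of at least 1 FPKM in 1 group, with means under 0.01 drawn at 0.01. VIM lies far above the diagonal, CDH1 and POU5F1 far below it, and FN1, COL1A1 and CDH2 rise with VIM.

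Motile cilium genes rose nearly throughout. Of 33, 30 rose and 2 fell (median 2.46), where 33% of all genes rose. The master regulator FOXJ1, which is expressed in the floor plate, stood at 9.22, 8.95 and 7.15 CPM in the hESC libraries and 50.2, 59.1 and 61.1 CPM in the control NPC libraries (2.75 ± 0.13, adjusted p = 5.21e-09). Axonemal and radial spoke genes rose with it, DNAH7 from 0.166 ± 0.187 to 13.3 ± 3.78 CPM, SPAG6 from 0.213 to 6.33 CPM, DRC1 from 0.503 to 12.8 CPM, PIFO from 4.00 to 45.1 CPM and HYDIN from 2.74 to 22.8 CPM. The RFX factors RFX2 and RFX3 rose by 1.61 ± 0.12 and 1.11 ± 0.15. The outer arm dynein genes DNAH5 (from 33.8 to 11.2 CPM) and DNAH11 (from 19.3 to 4.66 CPM) fell. Of 28 imprinted genes 20 rose and 4 fell (median 0.74), among them PLAGL1 (from 1.15 to 87.6 CPM), DLK1 (from 0.611 to 12.4 CPM), IGF2 (from 1.15 to 13.7 CPM) and the growth inhibitor CDKN1C (from 7.18 to 32.3 CPM), with SNRPN lower (from 207 to 70.7 CPM).

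Cell cycle genes moved in both directions. Of 35 genes of G1 18 rose and 10 fell (80% called). The replication genes (57.45% called) and mitosis genes (58.7% called) were called less often than all genes (64.5%). The inhibitor CDKN1A (p21) stood at 6.12, 6.44 and 8.85 CPM in the hESC libraries and 140.1, 114 and 103 CPM in the control NPC libraries (4.06 ± 0.19, adjusted p = 3.69e-09), without overlap. CDKN2A (from 0.0563 to 5.03 CPM) and CDKN2B (from 0.221 to 12.5 CPM) on chromosome 9, CDKN1B (from 17.6 to 61.6 CPM) and the kinase CDK6 (from 13.5 to 110.5 CPM) rose. The growth regulators MYC (from 72.4 ± 3.38 to 5.79 ± 1.20 CPM), MYCN (from 76.1 to 24.5 CPM) and CCNE1 (from 51.4 to 24.3 CPM) fell. Of 47 replication genes 21 fell and 6 rose (median -0.20), among the falls the helicase subunit MCM5 (from 229.6 ± 14.3 to 78.9 ± 12.4 CPM), while RRM1 rose (from 154 to 302 CPM). Of 46 mitosis genes 14 rose, 13 fell and 19 were not called (median 0.02). MKI67 stood at 308 ± 4.86 CPM in hESC and 369 ± 11.8 CPM in control NPC (adjusted p = 0.108). After removal of trends on GC content and length 26 mitosis genes fell and 9 rose, and TOP2A, higher by 0.33, was then lower by 0.22 on the log2 scale.

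Of 32 p53 targets and apoptosis genes 21 rose and 6 fell (median 0.54), where 33% of all genes rose and 31.6% fell. TP53INP1 (from 17.8 to 108 CPM), the death receptor FAS (from 2.46 to 14.5 CPM), ZMAT3 (from 10.6 to 57.5 CPM) and GDF15 (from 2.43 to 14.2 CPM) rose with CDKN1A. PMAIP1 (NOXA), a mitochondrial death gene that is high in pluripotent cells, stood at 98.3, 102 and 115 CPM in the hESC libraries and 7.64, 5.83 and 5.03 CPM in the control NPC libraries (-4.10 ± 0.15), a 17.1-fold fall. The survival gene MCL1 fell while BCL2 rose (-0.68 ± 0.09 and 1.78 ± 0.18).

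Of 31 genes of glycolysis and glucose transport 13 fell and 5 rose (median -0.25), 58.06% called against 64.5% of all genes. After removal of trends on GC content and length 9 rose. The glucose transporters SLC2A1 (from 1203 ± 186 to 495 ± 40.5 CPM) and SLC2A3 (from 1291 ± 135 to 625 ± 159 CPM) and the lactate carrier SLC16A1 (from 534 ± 18 to 247 ± 7.75 CPM) fell. ENO1 stood at 3421 ± 342 CPM in hESC and 3486 ± 324 CPM in control NPC (adjusted p = 0.856) and GAPDH at 5031 ± 350.1 CPM in hESC and 4327 ± 379 CPM in control NPC (adjusted p = 0.19), and neither passed the test. Of 28 serine and one-carbon genes 19 fell and 4 rose (median -0.59). PHGDH, the first enzyme of serine synthesis, stood at 673, 597 and 652 CPM in the hESC libraries and 232, 229 and 228 CPM in the control NPC libraries (-1.48 ± 0.09), all 3 control NPC libraries below all 3 hESC libraries. The glutamine carrier SLC1A5 (from 392 ± 19.4 to 114 ± 8.07 CPM) and the transsulfuration enzyme CBS (from 251 ± 14.7 to 53.2 ± 1.19 CPM) fell. Of 26 genes of fatty acid oxidation 14 rose and 3 fell (5 after that removal), with the mitochondrial regulator PPARGC1A (from 1.74 to 10.4 CPM) and the acylcarnitine carrier SLC25A20 (from 4.84 to 20.1 CPM) among the rises.

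The 8 largest losses in mean FPKM under the naming rule were POU5F1, HMGA1 and 6 transcripts of the mitochondrial genome. The mitochondrial ATP6 (from 4052 to 3016 FPKM), left out by its symbol, would rank among them, and its call was lost with limma on FPKM. Of 13 such protein-coding genes 8 fell and none rose, with 5 falls without hESC library 2 or control NPC library 2 or with library size alone, and 3 with limma on FPKM. COX1 fell from 6930 ± 490.1 to 3913 ± 63.6 FPKM, ND1 from 2865 ± 132 to 1275 ± 197 FPKM and ND2 from 2422 ± 209 to 1201 ± 178 FPKM, and COX3 from 7299 ± 785 to 5880 ± 108 FPKM, a call lost with library size alone, with limma on FPKM and without hESC library 1 or 2 or control NPC library 2 or 3. Nuclear genes of the respiratory chain showed both directions, with 16 rises (25 with library size alone, 9 without hESC library 2, 10 without control NPC library 3) and 19 falls (12 without hESC library 3) among 79 (median 0.01). Of 82 ribosomal protein genes 71 were not called, 9 fell (5 without hESC library 1 or control NPC library 2) and 2 rose, 13.4% called against 64.5% of all genes. More fell with other settings: 30, beside 4 that rose, after removal of trends on GC content and length, 19 with the 6 libraries only and 17 with DESeq2.

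**Figure D5:**
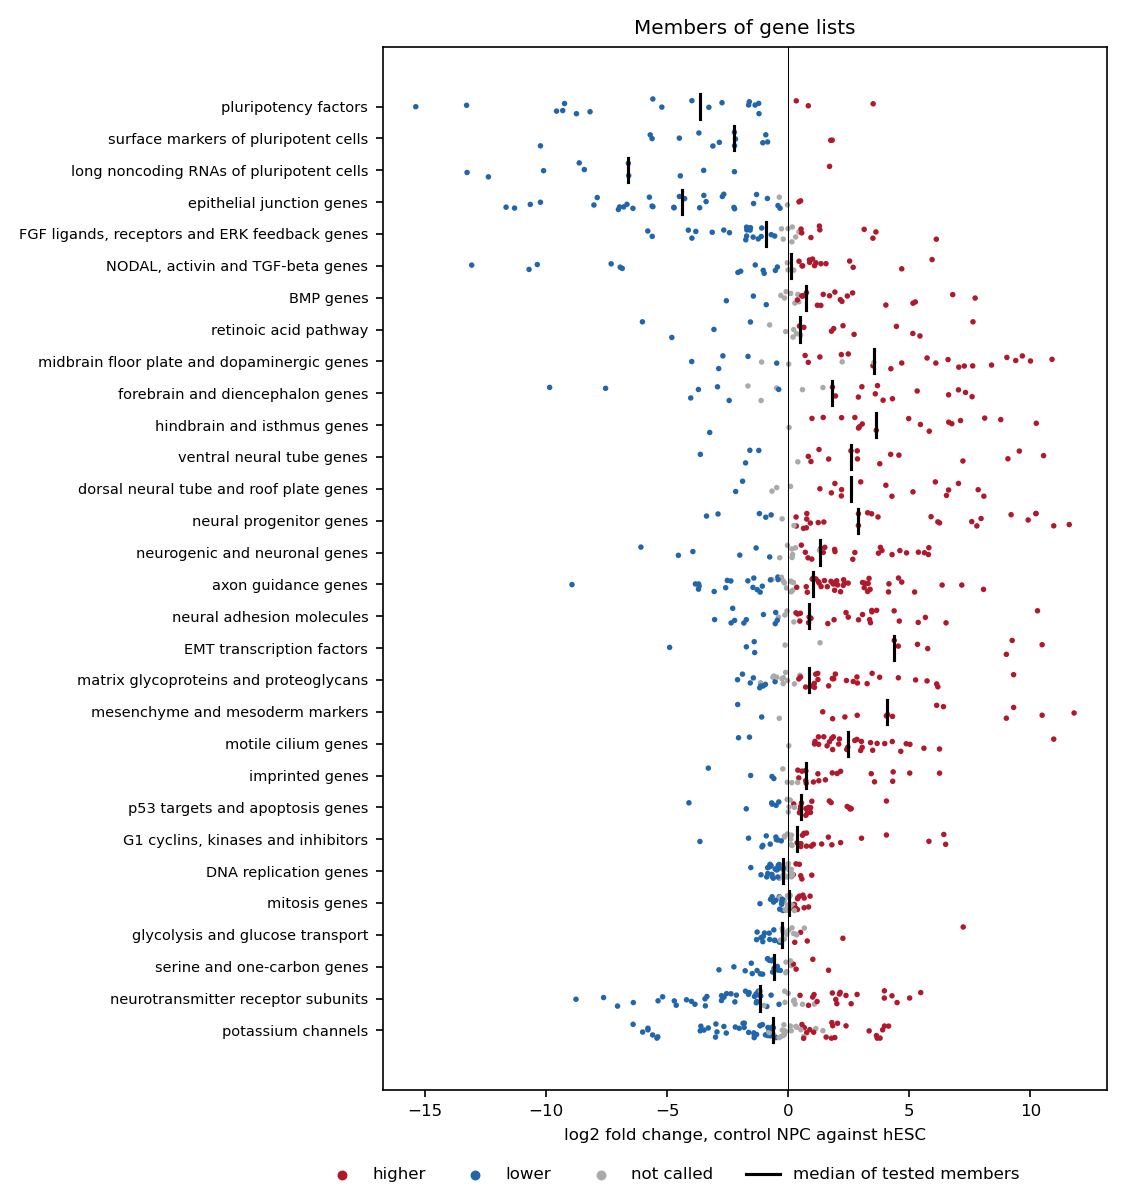
Log2 fold change of control NPC against hESC (x axis) of the tested members of 30 gene lists (rows), with red points for genes called higher, blue for lower and grey for not called, genes without a count in 1 group at their bound, and a black bar at the median. The bars of the pluripotency and epithelial lists lie left of 0, those of the neural tube, mesenchyme and motile cilium lists right of it, and the mitosis and replication lists stay close to 0.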

How the data were processed

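Total RNA extracted with TRIzol was made into stranded messenger RNA libraries, per the labels' protocols. The authors deposited a table of raw read counts per gene and, for each library, FPKM values, which are scaled by gene length and library size. Per the submitters' processing notes, Trimmomatic was used and the genome build is GRCh38. For the aligner, the counter and its strand setting the answer was not given in the sources used here, so overlapping, antisense and near-identical genes are uncertain.

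From the deposited counts, 20685 genes passed filterByExpr over 9 libraries and were tested with edgeR 4.0.16 (R 4.3.3) by TMM scaling, glmQLFit without robust estimation and glmQLFTest, with Benjamini-Hochberg adjustment over all of them and a threshold of 0.05. FPKM served for levels and as a check with limma 3.58.1 on log2 values with a pseudocount of 1 or 0.1. DESeq2 1.42.0, library size alone, no filter, 6 libraries only, a replicate block, removal of GC content and length trends, and leaving out each replicate were the alternatives. The scripts were tested on simulated data. The floor was 3 counts per library, 0.0451 to 0.0606 CPM, and covers counting error only. Sequences are from RefSeq, GRCh38.p14.

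Members and lists were chosen with earlier results of these data known, and the microRNA hosts after the files had been examined. Genes were named by a rule: among called genes whose groups do not overlap, leaving out symbols that start with LOC, LINC or MIR, end in AS and a number or in DT, or end in P and a number (which also takes out protein-coding genes such as CRABP1, ESRP2, ZFP42 and ATP6), the 10 largest rises and falls with at least 50 CPM, the 8 largest rises and falls in FPKM, in each list up to 4 members of largest change and the 2 with the highest CPM, plus cell type markers and the POU, SOX and HOX genes. Named outside it, chosen after their values were seen, were ALB, ALDH1A2, BCL2, BGN, CALB1, CCNE1, CDH11, CDK6, CDKN1B, COL11A1, CTNND1, DCC, DDC, DLL1, DNAH11, DNAH5, DSG2, DSP, DUSP4, EPHA4, EPHA7, EPHB2, ESRP2, FBN2, FGF2, FGFR3, FOXB1, FOXJ1, FOXO1, FOXP2, FST, GAP43, GDF15, GLI1, GLI2, GPC4, GRHL2, HESX1, HEY2, HMGA2, HYDIN, ID1, ID2, ID4, IRX2, LEFTY2, LIN28B, LRP2, MKI67, MYCN, NANOGP8, NEUROG1, NEUROG2, NODAL, NOTCH1, NOTCH3, NRARP, NRP2, NTN1, OCLN, OLIG1, PIFO, PKP2, PODXL, PROM1, PTPRZ1, RAB25, RFX2, ROBO1, ROBO2, ROBO3, SALL4, SLC18A2, SLIT2, SLIT3, SMAD3, SNAI1, SNRPN, SOX2-OT, SPRED2, SYP, TGFB2, TJP1, UNC5A, UNC5B, UNC5C, UNC5D, UTF1, ZFP42, ZIC4 and ZMAT3. Some genes are not reported here.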

Additional observations from a re-analysis of the deposited data

How the results depend on the processing

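Across the alternatives 6191 to 7640 genes were called higher and 5681 to 6996 lower, and 6751 to 6990 of the 7041 calls of at least 2-fold were called again. Library size alone gave 57.35% of calls as higher. Removal of GC and length trends, possible for 84.5% of genes tested, turned 63 calls. With limma on log2(FPKM + 1), 1457 genes were called higher and 1449 lower by at least 2-fold, and 1 PAX gene rose.

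Some counts of members moved by over 1.5 times, and the cause was not tested. Removing GC and length trends gave 6 BMP genes, 5 fatty acid oxidation genes, 26 mitosis genes, 1 mesenchyme marker, 1 TBX gene and 30 ribosomal protein genes that fell, and 1 epithelial junction gene, 9 glycolysis genes, 9 mitosis genes and 4 ribosomal protein genes that rose. It reversed TOP2A (-0.22), EYA3 (-0.26), CACNA1H (0.49), SYT1 (-0.26) and SOX12 (0.26, log2). With library size alone 8 mitosis genes, 5 mitochondrially encoded genes and 5 ribosomal protein genes fell, and 25 respiratory chain genes and 4 ribosomal protein genes rose. With limma at either pseudocount 8 mitosis genes and 3 mitochondrially encoded genes fell. Without the filter 2 long noncoding RNAs of pluripotent cells rose, and 2 hindbrain genes, 3 PAX genes, 8 keratins and 5 microRNA hosts fell. With the 6 libraries only, 2 PAX genes and 19 ribosomal protein genes fell, and with DESeq2 17 ribosomal protein genes.

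Leaving out 1 replicate each gave 1 to 2 epithelial junction genes that rose (1 without hESC 2, hESC 3 or control NPC 3), 9 to 13 respiratory chain genes that rose (9 without hESC 2, 10 without control NPC 3) and 12 to 17 that fell (12 without hESC 3), 5 to 8 mitochondrially encoded genes that fell (5 without hESC 2 or control NPC 2) and 5 to 10 ribosomal protein genes that fell (5 without hESC 1 or control NPC 2).

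Whether replicate numbers pair the libraries cannot be settled with 3 libraries per group. Deviations of same-numbered libraries correlated at 0.014, 0.0171 and 0.0758, others at -0.0429 to 0.0277. The highest value was that of the libraries numbered 3, while hESC 1 and hESC 2 correlated better with another number. With the number as a replicate block 6694 genes were called higher and 6422 lower. Genes near the floor of 3 counts limit the low end, and with 1 cell line and 3 libraries per group the spread may be technical.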

Other observations

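Gene classes differed in how often their members were called, where 33% of all genes rose and 31.6% fell, 64.5% called. Of 3193 tested long noncoding RNA genes 1055 rose, near the share of all genes, and 643 fell (53.18% called). Of 160 small nucleolar RNA genes 1 rose and 69 fell (43.75% called). Their summed levels were 138 to 152 CPM in hESC libraries and 79.8 to 85.9 CPM in control NPC libraries. Short RNAs are poorly captured in messenger RNA libraries, and reads of their host genes cannot be told apart from theirs.

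By chromosome, over 12420 genes of at least 5 CPM, 35.4% were called higher and 33.9% lower. On chromosome 19, 22.5% of 859 genes were higher and 46.0% lower (median log2 change -0.21, or 0.01 after removal of GC and length trends). On chromosome 13, 46.2% of 212 genes were higher and 23.6% lower (median 0.19, or -0.06).

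Further lists are given by their counts, and no result about a list is drawn from them. Of all genes 33% rose and 31.6% fell, 64.5% called. The clustered protocadherins (42% called) and intermediate filament genes (57.89% called) were called less often than that. Among markers of other tissues, 6 of 10 endoderm genes rose and 4 fell, 6 of 15 neural crest and placode genes rose and 6 fell, 3 of 10 endothelial and blood genes rose and 6 fell, 3 of 7 trophoblast and amnion genes rose and 3 fell, and 4 of 15 glial genes rose and 8 fell. Among transcription factors, 6 of 11 LIM homeobox genes rose and 3 fell, 5 of 7 TBX genes rose and 2 fell, 3 of 3 GATA genes rose, 4 of 14 KLF genes rose and 7 fell, 4 of 10 homologues of sine oculis and eyes absent rose and 3 fell, and 2 of 4 PAX genes rose and 1 fell. Of 50 clustered protocadherins 17 rose and 4 fell, and of 13 other protocadherins 6 rose and 5 fell. Of 15 claudins 3 rose and 10 fell, of 11 keratins 3 rose and 5 fell, and of 19 intermediate filament genes 5 rose and 6 fell.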
